A study of Mus musculus with 9 samples.

Results

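The C/EBP, KLF and EGR transcription factors of mouse bone marrow-derived macrophages (BMDMs) were described here by 9 genes chosen by name: Cebpa, Cebpb, Cebpd, Klf2, Klf4, Klf6, Egr1, Egr2 and Egr3. They are 9 of the 53465 genes counted by RNA-Seq, and each symbol stood on a single row. BMDMs were grown from the bone marrow of male wild-type C57BL/6 mice (C57bl6/J in the study's methods) in medium with CSF1 at 50 ng/ml, and 3 libraries were made for each of 3 groups. The cells were left untreated (UNX), exposed to medium conditioned by pulmonary artery adventitial fibroblasts of control calves (CO-CM), or exposed to medium conditioned by the same kind of fibroblast from calves with pulmonary hypertension (PH-CM). The labels give the exposure as 16 hours in one field and as 24 hours in another. The study's methods give a further value between them. The mouse cells thus met bovine fibroblast products, and the sources used here do not say whether CSF1 was present during the exposure. UNX against either medium compares untreated with exposed cells, and none of the 3 groups had unconditioned fibroblast medium. In the study's methods, fibroblasts grew in calf serum and fetal bovine serum was added to their medium before use. Fibroblast products and other differences of the medium thus cannot be told apart. PH-CM against CO-CM compares media of diseased and control donors. In the study's methods the donors were neonatal male calves, the diseased ones exposed to hypobaric hypoxia and the age-matched controls kept at ambient altitude. Hypoxia of the donors and their disease thus cannot be told apart. Each medium was pooled from several fibroblast populations, so the spread between calves is not measured. The comparisons with UNX use the same 3 UNX libraries, so they are not independent of each other.

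C/EBP proteins are basic leucine zipper factors that bind DNA as dimers, with C/EBPα known for driving myeloid differentiation and quiescence, and C/EBPβ and C/EBPδ known for induction by inflammatory stimuli. KLF proteins bind GC-rich and CACCC sequences through zinc fingers. KLF2 and KLF4 are known to restrain inflammatory activation of macrophages, whereas KLF6 is known as a partner of NF-kB signaling. EGR proteins are zinc finger factors encoded by immediate-early genes, which are transcribed within minutes of a growth factor or receptor signal through serum response factor and its partners, and their messages are short-lived.

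Libraries held 62017933 to 84314201 counted reads. Macrophage markers were abundant in every library: the 9 of the list summed to between 11960 and 12788 CPM (counts scaled by library size and TMM factor) in UNX, 19470 and 20408 in CO-CM, and 21452 and 23175 in PH-CM. The 7 fibroblast markers summed to 197 to 249 CPM in UNX, 267 to 318 in CO-CM and 249 to 335 in PH-CM, most of it from Col1a1 and Col1a2, and their part in the results below was not tested. Of 8 neutrophil and granulocyte markers, 7 stayed under 1 CPM in every library and Ly6g was at 0. All 5 dendritic cell markers and all 5 T and B cell markers were under 1 CPM in every library. The 5 endothelial markers summed to 33.2 to 44.0 CPM in UNX, 16.4 to 20.6 in CO-CM and 55.1 to 64.5 in PH-CM, nearly all of it Kdr, while Tek, Tie1 and Emcn stayed under 1 CPM.

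RefSeq promoter windows of GRCm38.p6 were used for 6 of the 9 genes, Cebpa, Cebpb, Klf2, Klf4, Klf6 and Egr2. No window was used for the other genes, which does not show that RefSeq holds none for them. Egr2 has 5 such windows, from different transcription starts. The 4 shown are of those among the 6 whose level changed by at least 2-fold in some comparison. Each is the 250 bases just before a RefSeq transcription start, on the plus strand. Capitals mark motifs found by letter match on either strand: a TATAAA sequence in Cebpa, TGACG (a core of the cAMP response element) in Cebpb, TGACG, the EGR motif GCGNGGGCG and a MEF2 box in Klf2, and TGACG and a CArG box (the site of serum response factor) in Egr2.
Cebpa, chr7:35119043-35119292: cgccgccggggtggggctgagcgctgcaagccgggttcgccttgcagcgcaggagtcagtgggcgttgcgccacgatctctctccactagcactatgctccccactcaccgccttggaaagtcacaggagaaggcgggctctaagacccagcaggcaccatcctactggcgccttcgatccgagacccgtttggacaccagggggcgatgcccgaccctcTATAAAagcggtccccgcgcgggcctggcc
Cebpb, chr2:167688665-167688914: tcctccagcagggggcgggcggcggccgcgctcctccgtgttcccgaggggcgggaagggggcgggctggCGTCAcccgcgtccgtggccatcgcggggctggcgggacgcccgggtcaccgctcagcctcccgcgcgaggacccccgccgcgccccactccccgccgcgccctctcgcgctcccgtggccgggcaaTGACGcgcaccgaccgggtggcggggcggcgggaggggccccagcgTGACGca
Klf2, chr8:72318812-72319061: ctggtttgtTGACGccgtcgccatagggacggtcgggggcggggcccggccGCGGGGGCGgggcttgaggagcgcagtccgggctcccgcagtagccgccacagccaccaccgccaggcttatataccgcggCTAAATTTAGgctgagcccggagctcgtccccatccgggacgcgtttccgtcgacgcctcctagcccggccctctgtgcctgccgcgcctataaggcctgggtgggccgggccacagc
Egr2, chr10:67537619-67537868: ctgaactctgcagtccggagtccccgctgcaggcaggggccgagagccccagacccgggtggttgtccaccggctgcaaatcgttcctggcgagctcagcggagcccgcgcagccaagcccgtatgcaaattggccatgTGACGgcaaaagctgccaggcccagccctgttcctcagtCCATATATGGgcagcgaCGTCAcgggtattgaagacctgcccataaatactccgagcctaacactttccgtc

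With the base before the start as position -1, the TATAAA of Cebpa lay at -30 to -25. The 3 TGACG matches of Cebpb began at -180, -53 and -7. The Klf2 window held TGACG at -241 to -237, the EGR motif at -199 to -191 and the MEF2 box at -118 to -109. The Egr2 window shown held its CArG box at -72 to -63, flanked by TGACG matches at -111 and -55. Another 2 Egr2 windows overlap it and hold the same CArG box and TGACG matches, a window at chr10:67537316-67537565 held a CArG box without TGACG, and the one at chr10:67535249-67535498 held neither. Of the 32817 promoter windows of this length, 1.47% held a CArG box, 0.509% a MEF2 box, 4.70% the EGR motif, 17.7% TGACG and 12.4% TATAAA. The C/EBP motif TTGCNNAA, held by 9.57% of windows, had no match in these 4. The KLF motif CACCC, held by 52.0% of windows and not capitalised, matched at -242 in Cebpa, at -177 (overlapping TGACG) and -38 in Cebpb, at -19 in Klf2 and at -194 in Egr2. CCAAT, held by 33.8% of windows and also not capitalised, matched at -121 in Egr2 alone of the 4. The matches describe the letters of these windows and were not tested against the expression values.

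All 9 genes passed the filter on low counts (more than 1 CPM in at least 3 libraries), but Egr3 passed it through its 3 UNX libraries and 1 CO-CM library, with no PH-CM library over 1 CPM. A gene was called changed where edgeR's quasi-likelihood test, unpaired by replicate number, gave an FDR up to 0.05 and the fold change reached 1.2. PH-CM against UNX called 8 of the 9, 3 higher and 5 lower, where 63% of the 11950 genes tested were called, 31.3% higher and 31.7% lower. CO-CM against UNX called 6, 2 higher and 4 lower, beside 57% of all genes, 28% higher and 28.9% lower. PH-CM against CO-CM called 5, 2 higher and 3 lower, beside 27.1% of all genes, 12.2% higher and 15% lower. With so many genes called, these counts alone say little about the 9, and the directions and sizes below carry the description.

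**Figure D1:**
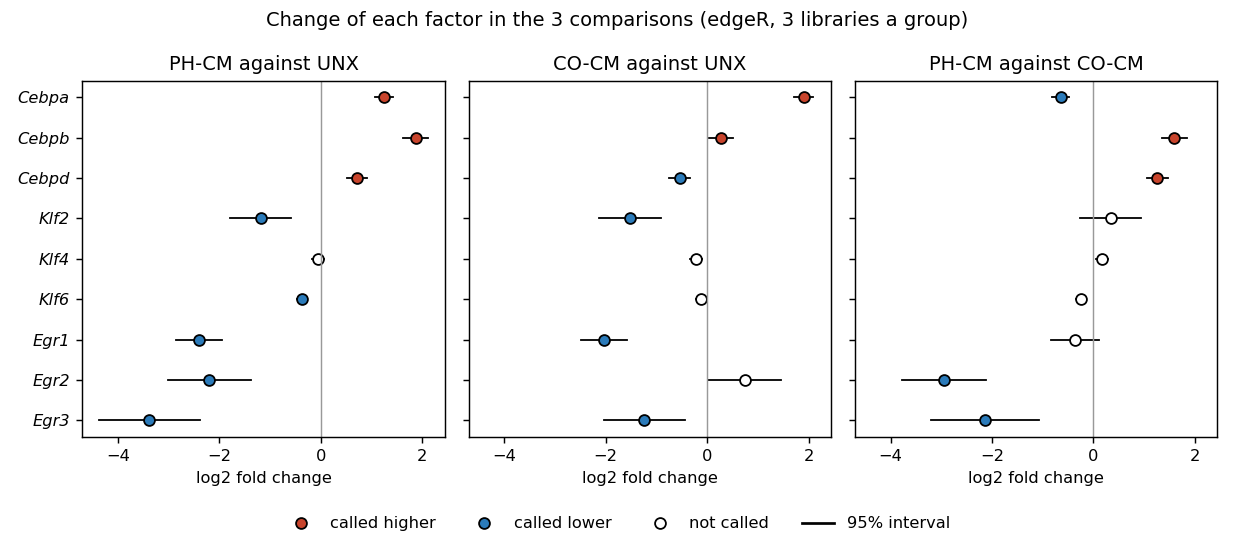
Log2 fold change of each of the 9 genes (horizontal axis) in the 3 comparisons, with 95% intervals and 3 libraries a group; red points were called higher, blue points lower and white points not called. The 3 C/EBP genes lie on the higher side and the 3 EGR genes on the lower side in PH-CM against UNX, whereas Cebpd and Egr2 lie on opposite sides of 0 in the first and second panels.

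Which factor was most abundant differed between the groups. Levels of different genes were compared in RPKM, counts scaled by exon length and library size. The length of Cebpb, 1504 bases, includes 312 shared with Tmem189 on the opposite strand, from which reads may be missing. That of Cebpd, 3746 bases, likewise includes 562 shared with Spidr. The RPKM of these genes may thus be too low, and the order of Cebpa and Cebpb in UNX is uncertain. Klf6 led in UNX at 78.5 ± 2.88 RPKM (SD, n = 3), Cebpa led in CO-CM at 128 ± 11.2, and Cebpb led in PH-CM at 108 ± 13.3. In UNX, Klf6 was followed by Klf2 at 41.5 RPKM, Cebpa at 36.0, Cebpb at 30.7 and Klf4 at 16.5. Cebpd (7.44 RPKM), Egr1 (6.32), Egr2 (3.30) and Egr3 (0.489) came last. In UNX the Klf2 libraries overlapped those of Cebpa and Cebpb, and the Cebpd libraries overlapped those of Egr1. Klf2 is thus not ordered against Cebpa or Cebpb, nor Cebpd against Egr1.

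In CO-CM the order after Cebpa was Klf6 (68.8 RPKM), Cebpb (35.4), Klf2 (13.8), Klf4 (13.5), Egr2 (5.29), Cebpd (4.86), Egr1 (1.47) and Egr3 (0.196). There Klf2 overlapped Klf4, and Egr2 overlapped Cebpd. In PH-CM the order after Cebpb was Cebpa (82.7 RPKM), Klf6 (58.5), Klf2 (17.6), Klf4 (15.2), Cebpd (11.7), Egr1 (1.15), Egr2 (0.694) and Egr3 (0.0447). There 1 Cebpb library lay below the highest Cebpa library, and Klf2 overlapped Klf4. Among the genes tested, the PH-CM level of Cebpb exceeded that of 96.9%, against 85.8% for its UNX level, while Egr1 went from above 48.5% of genes in UNX to above 17.2% in PH-CM.

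**Figure D2:**
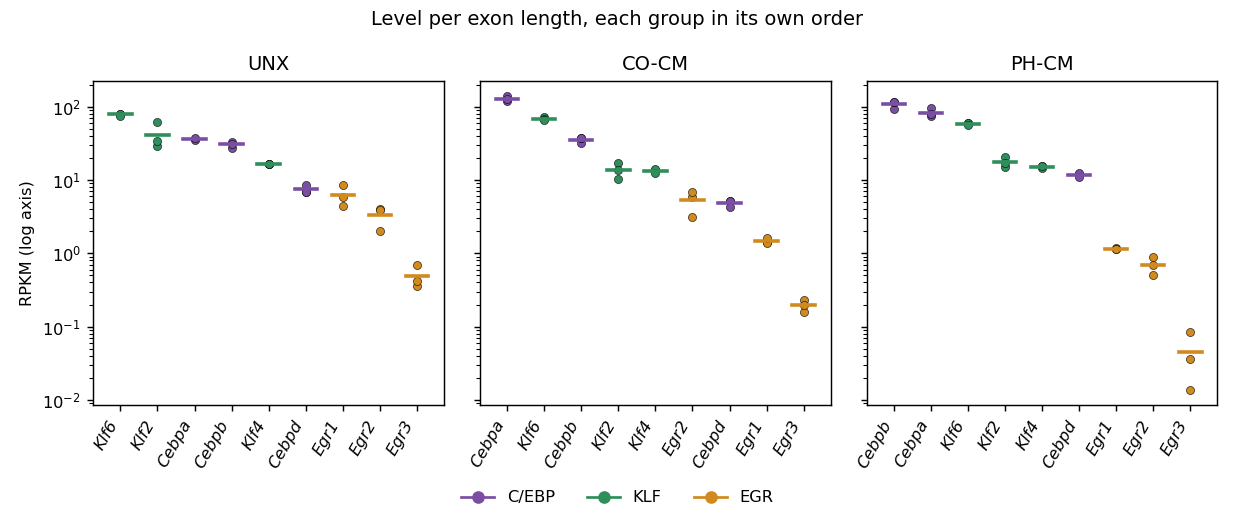
RPKM (log axis) of the 9 genes in each group, each panel in its own descending order; points are libraries, bars are means of 3, and colours mark the 3 families. Klf6 is first in UNX, Cebpa in CO-CM and Cebpb in PH-CM, and Egr3 is last in each.

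Cebpa, which encodes C/EBPα, was higher under both media and highest under CO-CM. The gene lies at chr7:35119293-35121928 on the plus strand of GRCm38 and has 1 exon. It shares 51 bases with the antisense gene Gm45091, which had 328 reads over the 9 libraries. Its level was 90.1, 91.3 and 95.4 CPM in the UNX libraries, 371, 326 and 339 in CO-CM, and 248, 200.2 and 213 in PH-CM. The 3 groups did not overlap. Cebpa rose by 1.90 on the log2 scale in CO-CM (3.74-fold, FDR = 2.22e-08, edgeR) and by 1.26 in PH-CM (2.39-fold, SE 0.080, FDR = 2.08e-07). PH-CM lay below CO-CM by a log2 difference of -0.65 (FDR = 0.000126). In bulk RNA, a change in the number of cells with the message and a change in RNA per cell cannot be told apart, here and for each gene below. The p-values measure the spread between these numbered libraries, and the labels do not tie them to mice.

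Cebpb, which encodes C/EBPβ, was high in PH-CM alone. It lies at chr2:167688915-167690418 on the plus strand, with 1 exon. Its level was 48.0, 40.8 and 45.9 CPM in UNX and 47.4, 58.4 and 57.2 in CO-CM, which overlap. In PH-CM it was 139, 179 and 175 CPM, above every other library. It rose by 1.87 on the log2 scale against UNX (3.66-fold, SE 0.11, FDR = 1.42e-07) and by 1.6 against CO-CM (3.02-fold, FDR = 3.04e-06). CO-CM against UNX gave 1.21-fold (log2 0.28 ± 0.11 SE, FDR = 0.0452), a call lost when any one of UNX libraries 2 and 3, CO-CM libraries 2 and 3 or PH-CM library 3 was left out (FDR = 0.182, 0.0956, 0.144, 0.125 and 0.0520).

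Cebpb shares 312 bases of exon with Tmem189 on the opposite strand, and the counting options listed in the study's methods include none for strand. Reads of the shared bases thus cannot be told apart by strand. The listed options also include none for counting a read under both genes, so such reads may be missing from either count. Tmem189 rose in PH-CM (log2 0.89) and in CO-CM (0.38) against UNX and in PH-CM against CO-CM (0.50). Its part in the Cebpb counts was not tested.

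Cebpd, which encodes C/EBPδ, moved in opposite directions under the 2 media. It lies at chr16:15887286-15891031 on the plus strand, with 1 exon. Its level was 30.6, 25.4 and 25.3 CPM in UNX, 19.4, 19.8 and 16.6 in CO-CM, and 45.1, 47.0 and 41.3 in PH-CM. The 3 groups did not overlap, with UNX in the middle. Cebpd fell by 0.54 on the log2 scale in CO-CM (FDR = 0.000434) and rose by 0.72 in PH-CM (1.64-fold, FDR = 4.33e-05). Set against each other, PH-CM exceeded CO-CM by 1.26 (2.39-fold, SE 0.094, FDR = 4.96e-06). Cebpd shares 562 bases of exon with Spidr on the opposite strand, which fell in both media (log2 -0.66 in PH-CM and -0.88 in CO-CM). That is the direction of Cebpd in CO-CM and the opposite one in PH-CM, and the part of Spidr in the Cebpd counts was not tested. As for Cebpb, reads of the shared bases may be missing from the counts.

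The balance of Cebpb to Cebpa followed from these levels. Cebpb RPKM divided by Cebpa RPKM was 0.933, 0.784 and 0.844 in the UNX libraries. It was 0.224, 0.314 and 0.296 in CO-CM and 0.979, 1.57 and 1.44 in PH-CM. The CO-CM ratios were below all others and the PH-CM ratios above all others, the lowest PH-CM ratio by a small margin. The Cebpb length includes bases shared with Tmem189, which may lower all these ratios, so they are compared only between groups.

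**Figure D3:**
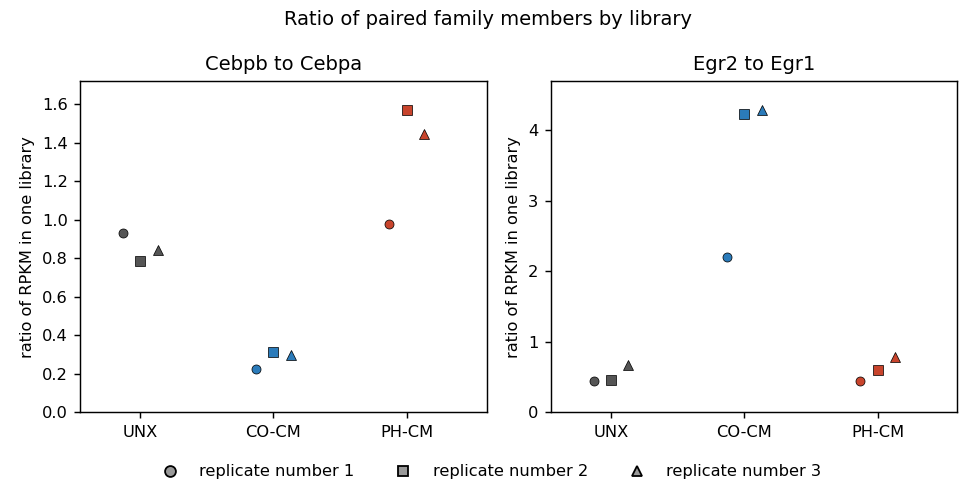
Ratio of Cebpb to Cebpa RPKM (left) and of Egr2 to Egr1 RPKM (right) in each of the 9 libraries, with symbols for the replicate numbers. The left ratio is lowest in CO-CM (0.224 to 0.314), and the right ratio is highest there (2.20 to 4.28).

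Of the KLF genes, Klf2 fell under both media, Klf6 fell in PH-CM, and Klf4 was not called in any comparison. Klf2, at chr8:72319033-72321656 on the plus strand with 3 exons, is known for maintaining quiescence in endothelial cells and monocytes. Its level was 51.8, 110.2 and 61.8 CPM in UNX, 19.3, 32.5 and 26.2 in CO-CM, and 27.5, 38.7 and 32.5 in PH-CM. UNX lay above both treated groups, which overlapped each other, and UNX library 2 lay far above the other 2. Klf2 fell by 1.52 on the log2 scale in CO-CM (2.87-fold lower, FDR = 0.000568) and by 1.18 in PH-CM (2.27-fold lower, SE 0.27, FDR = 0.00237). Without UNX library 2 the differences were -1.14 and -0.80 and both stayed called.

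PH-CM against CO-CM did not pass for Klf2 (log2 0.34, 95% interval -0.27 to 0.94, FDR = 0.359). With the replicate number as a block the difference was 0.36 and was called (FDR = 0.0152), since replicate 2 was the highest and replicate 1 the lowest in every group. Within replicate numbers PH-CM exceeded CO-CM by 0.51, 0.25 and 0.31 on the log2 scale.

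Klf4, known for promoting monocyte differentiation and alternative activation, lies at chr4:55527143-55532466 on the minus strand, with 5 exon blocks. Its level was 48.9, 48.7 and 49.2 CPM in UNX, 41.5, 44.8 and 39.4 in CO-CM, and 46.8, 45.3 and 48.5 in PH-CM. The PH-CM difference from UNX was -0.06 on the log2 scale (95% interval -0.18 to 0.06, FDR = 0.312). CO-CM was lower than UNX in every library, by -0.22 (FDR = 0.00367), a 1.17-fold difference below the fold required for a call.

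Klf6, at chr13:5861482-5870394 on the plus strand with 5 exon blocks, was the most abundant KLF gene in every group. Its level was 335, 347 and 324 CPM in UNX, 315, 311 and 299 in CO-CM, and 262, 268 and 250.5 in PH-CM. The groups stepped down without overlap. Klf6 fell by 0.36 on the log2 scale in PH-CM against UNX (1.29-fold lower, SE 0.046, FDR = 3.85e-05). The difference between PH-CM and CO-CM was -0.25 (1.19-fold, FDR = 0.00203) and that between CO-CM and UNX was -0.12 (FDR = 0.0400), both under the fold required. PH-CM against CO-CM became a call without CO-CM library 3 or without PH-CM library 2 (log2 -0.27 in both).

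**Figure D4:**
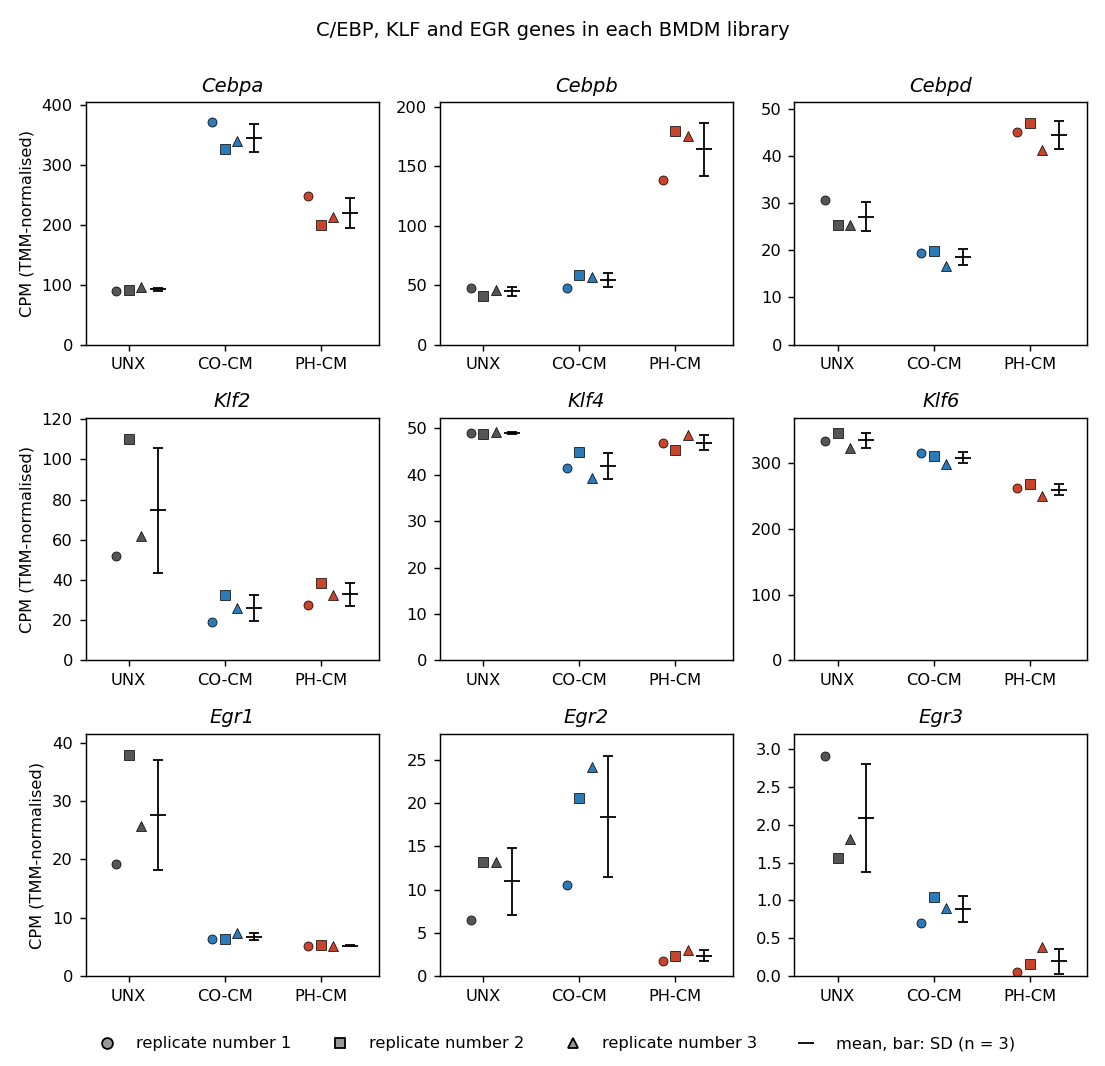
CPM of each of the 9 genes in every library (linear axes from 0), with symbols for the replicate numbers and the mean ± SD of each group at the right of its points. Cebpb is high in PH-CM, Cebpd is lowest in CO-CM and highest in PH-CM, and Egr2 is highest in CO-CM and lowest in PH-CM.

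Of the EGR genes, Egr1 and Egr3 fell under both media, while Egr2 fell in PH-CM and had its highest mean in CO-CM. Egr1, the serum-induced founder of the family, lies at chr18:34859823-34864984 on the plus strand with 2 exons. Its level was 19.2, 37.9 and 25.7 CPM in UNX, 6.35, 6.44 and 7.44 in CO-CM, and 5.21, 5.28 and 5.19 in PH-CM. The lowest UNX library was above all treated ones, and the PH-CM libraries were nearly equal to each other. Egr1 fell by 2.40 on the log2 scale in PH-CM (5.28-fold lower, SE 0.21, FDR = 2.16e-06) and by 2.03 in CO-CM (4.10-fold lower, FDR = 8.45e-06). PH-CM lay below CO-CM in every library, but the difference of -0.37 (95% interval -0.84 to 0.10) was not called (FDR = 0.199). It was called without UNX library 2 (FDR = 0.0400).

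Egr2, known for a part in macrophage differentiation and alternative activation, lies at chr10:67535475-67542188 on the plus strand, with 5 exon blocks. Its level was 6.48, 13.2 and 13.1 CPM in UNX, 10.6, 20.6 and 24.1 in CO-CM, and 1.73, 2.38 and 3.07 in PH-CM. The PH-CM libraries were below all others, and the UNX and CO-CM libraries overlapped, with replicate 1 the lowest in each group. Egr2 fell by 2.20 on the log2 scale in PH-CM against UNX (4.60-fold lower, SE 0.37, FDR = 0.000292). It was lower in PH-CM than in CO-CM by a log2 difference of -2.95 (7.72-fold, SE 0.37, FDR = 0.000158).

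CO-CM against UNX gave a log2 difference of 0.75 for Egr2 (1.68-fold, SE 0.32), which was not called (FDR = 0.0615). With the replicate number as a block the difference was 0.74 and was called higher (FDR = 1.58e-05), since CO-CM exceeded UNX within numbers 1, 2 and 3 by 0.71, 0.64 and 0.88. It was also called without CO-CM library 1 (1.03, FDR = 0.00769). The ratio of Egr2 to Egr1 RPKM was 0.445, 0.461 and 0.674 in UNX and 0.437, 0.595 and 0.780 in PH-CM, which overlap. It was 2.20, 4.22 and 4.28 in CO-CM, above all other libraries.

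Egr3, at chr14:70077203-70082614 on the plus strand with 4 exon blocks, is known for limiting lymphocyte activation together with Egr2 and was the least abundant gene in every group. It had 188, 118 and 155 reads in UNX, 48, 70 and 64 in CO-CM, and 4, 10 and 24 in PH-CM. The groups stepped down without overlap. Egr3 fell by 3.38 on the log2 scale in PH-CM against UNX (SE 0.45, FDR = 5.36e-05) and by 1.23 in CO-CM (FDR = 0.0110). PH-CM against CO-CM gave a log2 difference of -2.15 (FDR = 0.00544). Counts this low left the size uncertain: without PH-CM library 3 the PH-CM differences were -4.23 from UNX and -3.0 from CO-CM, and without PH-CM library 1 they were -2.93 and -1.69.

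The fall of the EGR genes was set beside 14 other immediate-early genes, all tested. In PH-CM against UNX, 8 of the 14 rose and 4 fell, beside 31.3% and 31.7% of all genes. The median log2 difference was 0.97, against 0.0072 over all genes tested. The largest rises were those of Ier3 (2.14), Btg2 (2.01), Fos (1.94) and Junb (1.67), genes for a survival factor, an antiproliferative factor and AP-1 subunits. Myc fell by 3.46, and Jun, Atf3 and Ier5 fell by 0.60, 0.47 and 0.38. Egr1, Egr2 and Egr3 fell in cells in which Fos rose from 33 to 58.3 CPM in UNX to 132 to 194 CPM in PH-CM, without overlap.

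In CO-CM against UNX, 4 of the 14 rose and 7 fell, beside 28% and 28.9% of all genes, with a median of -0.21. Zfp36, whose product destabilises AU-rich messages, rose by 1.25, Junb by 1.01, Btg2 by 0.93 and Atf3 by 0.93. Myc fell by 2.91 and Fosb by 1.27. In PH-CM against CO-CM, 8 were higher and 2 lower, beside 12.2% and 15% of all genes, with a median of 0.66. Fosb was higher by 2.68, Ier3 by 2.43 and Fos by 1.74, and Atf3 was lower by a log2 difference of -1.40. Atf3 and Egr2 were both higher in CO-CM than in PH-CM.

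**Figure D5:**
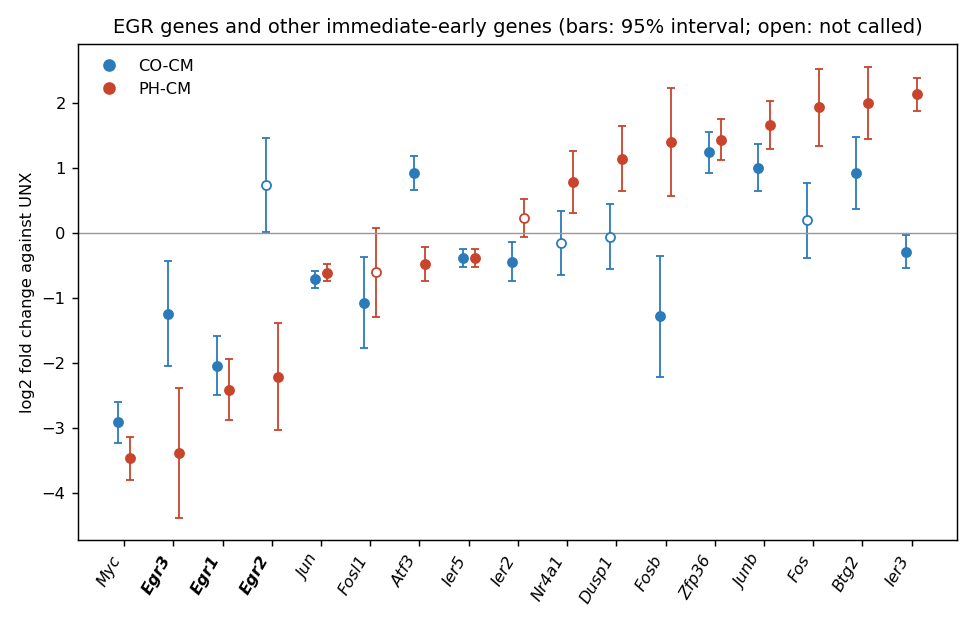
Log2 fold change against UNX, with 95% intervals, of the 3 EGR genes (bold names) and 14 other immediate-early genes, ordered by the PH-CM value; blue is CO-CM, red is PH-CM, and open points were not called. The EGR genes lie at -2.20 to -3.38 in PH-CM, near Myc, whereas Ier3, Btg2 and Fos lie near 2.

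Of 18 genes known to depend on C/EBP factors, 10 passed the filter on low counts. The 8 that did not include the granule genes Mpo, Elane, Camp and Ltf. In PH-CM against UNX, 9 of the 10 rose and 1 fell, with a median of 1.80, beside 31.3% and 31.7% of all genes. The filter bears on this tally, which describes the tested genes only: Hp and Saa3 passed it through treated libraries alone, while Il10 and Ltf, lower in every PH-CM library than in any UNX library, were not tested. Ptgs2, the inducible cyclooxygenase, rose by 3.20 on the log2 scale from 0.815 to 1.91 CPM in UNX to 10.8 to 12.2 CPM in PH-CM. Saa3 and Hp, acute phase genes, rose by 3.0 and 2.75, though both stayed below 4 CPM. Arg1 (arginase 1) rose by 2.65 and Csf3r, the receptor for granulocyte colony-stimulating factor, by 2.18. Msr1, a scavenger receptor, fell by 1.5.

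In CO-CM against UNX, 6 of the 10 rose and 2 fell, with a median of 0.60, beside 28% and 28.9% of all genes. Csf3r went from 5.45, 7.17 and 8.0 CPM in UNX to 53.3, 70.9 and 61.3 in CO-CM, and was 24.1, 35.1 and 34.4 in PH-CM. Like Cebpa, it was highest in CO-CM and intermediate in PH-CM without overlap, and PH-CM against CO-CM gave a log2 difference of -0.99. Cd14, the lipopolysaccharide co-receptor, had the order of Cebpd. It was 335, 287 and 305 CPM in UNX, 158, 189 and 176 in CO-CM, and 735, 889.6 and 870.1 in PH-CM. PH-CM against CO-CM called 4 of the 10 higher and 1 lower, with a median of 0.33, beside 12.2% and 15% of all genes.

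Of 11 genes known to depend on KLF factors, 10 passed the filter, and the same shares of all genes apply to the counts of this list and the next. In PH-CM against UNX 5 rose and 3 fell (median 0.11), in CO-CM 3 rose and 2 fell (median -0.0049), and PH-CM against CO-CM had 5 higher and 3 lower (median 0.27). S1pr1, a KLF2 target that directs lymphocyte egress, was 87.1, 96.5 and 82.7 CPM in UNX, 104, 88.4 and 86.5 in CO-CM, and 179.7, 169 and 166 in PH-CM. It rose in PH-CM by 0.95 on the log2 scale, where Klf2 fell. Cdkn1a, the p21 cell cycle inhibitor, fell by 1.26 in CO-CM and by 0.67 in PH-CM.

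All 12 genes known to depend on EGR factors were tested. In PH-CM against UNX 7 rose and 2 fell (median 0.35), in CO-CM 4 rose and 1 fell (median 0.34), and PH-CM against CO-CM had 3 higher and 3 lower (median 0.09). Plau, the urokinase plasminogen activator, had the largest change of the list. It was 920.3, 702 and 804 CPM in UNX, 66.3, 123 and 172 in CO-CM, and 32.4, 29.4 and 35.2 in PH-CM, with no overlap between the groups. It fell by 4.65 on the log2 scale in PH-CM and by 2.75 in CO-CM. Pdgfb fell by 1.13 in PH-CM, while Hpse (heparanase) rose by 1.11 there and by 1.39 in CO-CM. F3 passed the filter through treated libraries alone.

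Among the other C/EBP family genes, 3 of 4 were tested. Cebpg rose in CO-CM (log2 0.55) and in PH-CM (0.37), and Cebpz fell in both (-0.48 and -0.40). Ddit3, which encodes the stress-induced inhibitor CHOP, rose in CO-CM by 0.47 and was lower in PH-CM than in CO-CM by -0.65. Of the EGR relatives Egr4 and Wt1 and the EGR corepressors Nab1 and Nab2, Egr4 and Wt1 were at or near 0 reads. Nab2 was not called in any comparison, and Nab1 fell by 0.41 in CO-CM and was higher in PH-CM than in CO-CM by 0.29.

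The genes with the profile most like each factor were found by the root mean square difference of centred log2 CPM over the 9 libraries. A value of 0 would be an identical profile. The value is not scaled by how much a gene changes. It is small between any genes that change little, such as Klf4, and is not compared between factors. Cebpa was nearest to Nuak1 (0.146) and Mfge8 (0.179), the latter encoding a bridge for the uptake of apoptotic cells, and Cebpb to Emb and Pitpnc1 (both 0.170). Cebpd was nearest to Cfap43 (0.0717) and Tgfbi (0.101). Tgfbi, a matrix protein gene, was 364 ± 38.2 CPM (SD, n = 3) in UNX, 223 ± 32.1 in CO-CM and 550.0 ± 32.5 in PH-CM, the order of Cebpd.

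Klf2 was nearest to Clec10a (0.251) and Impa2 (0.279), Klf4 to Uimc1 (0.0274) and Camk2g (0.0419), and Klf6 to Taok3 (0.0347) and Hivep2 (0.0437). Egr1 was nearest to Kif23 (0.217) and Tube1 (0.232), genes of cytokinesis and the centriole, Egr2 to the integrin gene Itgax (0.367) and Prr5l (0.382), and Egr3 to Cd40 (0.518) and Ankrd29 (0.543). Itgax shared the order of Egr2, with 47.5 ± 24.6 CPM in CO-CM, 23.7 ± 13.3 in UNX and 6.52 ± 1.28 in PH-CM.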

How the data were processed

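RNA-Seq of 9 BMDM libraries was analysed. The authors aligned reads to GRCm38 with STAR and assigned them to genes with featureCounts 1.6.2; the deposited counts are whole, unnormalized reads per gene. Of the counts from 1 to 19, 81.4% to 83.8% in each library were even, so mates were taken to be counted separately. The listed counting options name neither strand nor pairs, and none is for a read on exons of more than 1 gene. The RPKM values deposited by the authors are these counts scaled by exon length and library size, without a composition factor. The authors' comparison tables (log2 fold changes, mean log2 CPM, p-values and FDR) were not used. Of 53465 identifiers, 53274 matched the reference names. Coordinates came from GENCODE, promoters from RefSeq (GRCm38.p6).

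Counts were fitted in R 4.3.3 with edgeR 4.0.16 (TMM, more than 1 CPM in at least 3 libraries, 11950 genes, quasi-likelihood test over all 9 libraries, Benjamini-Hochberg FDR over all genes tested). A call needed an FDR up to 0.05 and a fold change from 1.2. The fit was tested on simulated data. Alternatives used DESeq2 1.42.0, edgeR's exact test, other normalizations and filters, halved counts, the replicate number as a block, and each library left out. Libraries with the same number deviated together (r = 0.276 to 0.484 in 9 of 9 pairs). The main test did not use this pairing, so its FDR values ignore it. Pairing entered only the block alternative and the differences given within replicate numbers. Calls are those of the unpaired test unless another setting is named. The text names the 9 genes, genes of fixed lists (up to 4 a list and comparison first, by size of change) and the 2 tested genes nearest to each factor by profile. The genes and lists were chosen with earlier results of these data known. No replicate libraries agreed within sampling noise. Depth makes counting error small except for Egr3. The values of 1 gene of the KLF-dependent list are not reported here.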

Additional observations from a re-analysis of the deposited data

Results flagged for a closer look

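Cebpd was flagged because its 2 effects against UNX were called with opposite signs, lower in CO-CM and higher in PH-CM, in all libraries. This was not particular to Cebpd. Egr2 also had opposite signs (log2 0.75 in CO-CM, not called, and -2.20 in PH-CM). Genes such as Cd14, Trib1, Tgfbi and Cfap43 moved in the directions of Cebpd. The share of all genes with opposite signs was not counted. The gap between the 2 effects on Cebpd is the PH-CM against CO-CM difference already given: PH-CM exceeded CO-CM by 1.26 on the log2 scale (FDR = 4.96e-06, edgeR, higher in 3 of 3 libraries). Both effects are measured against the same 3 UNX libraries. The overlapping gene Spidr fell in both, by log2 differences of -0.66 in PH-CM and -0.88 in CO-CM, and its part in the Cebpd counts was not tested.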

How the results depend on the processing

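Of 512 values of the 9 genes recomputed under the alternatives, 489 kept their direction and their side of the call, 8 lost the call, 15 gained one and 0 reversed. All 8 losses were of Cebpb in CO-CM against UNX, also lost with library size alone (log2 0.20, FDR = 0.102), filterByExpr (0.24, FDR = 0.0734) and no filter beyond 1 read (0.24, FDR = 0.0156, too small a fold). The number of the 9 called was 8 in PH-CM against UNX, 5 to 7 in CO-CM against UNX and 5 to 6 in PH-CM against CO-CM. It was 8, 8 and 7 with no fold required, and 6, 4 and 4 at a fold of 2. All genes called fell from 7534, 6806 and 3244 to 2153, 1655 and 612 at that fold. With the replicate number as a block, Egr2 in CO-CM against UNX (0.74) and Klf2 in PH-CM against CO-CM (0.36) were called, and no other call among the 9 changed. Egr2 in CO-CM against UNX was also called with upper-quartile factors (0.81, FDR = 0.0460), the exact test (0.75, FDR = 0.0398) and no filter (0.71, FDR = 0.00110). Klf4 in CO-CM against UNX was called with library size alone (-0.29), without a filter (-0.26) and without CO-CM library 2 (-0.27). In PH-CM against CO-CM, Klf6 was called with upper-quartile factors (-0.28), and Egr1 without a filter (FDR = 0.0494) or with only the 2 groups fitted (FDR = 0.0231). Egr3 could not be fitted in PH-CM against CO-CM with only those 2 groups, since it did not pass the filter there. The cause of these changes was not tested. With 3 libraries a group, small differences such as those of Klf4 rest on few samples.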

Other observations

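Serum response factor and its partners were set beside the EGR genes, which they are known to regulate. Of 6 genes, 5 were called higher in PH-CM against UNX and 0 lower, beside 31.3% and 31.7% of all genes tested. The median log2 difference was 0.48. Srf itself was lower in PH-CM by a log2 difference of -0.23 (FDR = 0.0142, edgeR), under the fold required for a call. The other shares of all genes called, for the counts in this section, were 28% higher and 28.9% lower in CO-CM against UNX and 12.2% and 15% in PH-CM against CO-CM. Elk3, a ternary complex factor, was 71.7, 65.7 and 66.3 CPM in UNX and 102, 107 and 108 in PH-CM (log2 0.64), and Mrtfb and Mrtfa, actin-regulated cofactors, rose by 0.61 and 0.60. In CO-CM against UNX 2 rose and 1 fell (median 0.05), Srf itself by -0.31, and PH-CM against CO-CM had 3 higher and 0 lower (median 0.21).

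Of the 14 other KLF genes, 8 were tested. In PH-CM against UNX 4 rose and 2 fell (median 0.35), in CO-CM 4 rose and 2 fell (median 0.25), and PH-CM against CO-CM had 2 higher and 2 lower (median 0.04). Klf9, a glucocorticoid-responsive gene, was 6.20, 6.86 and 6.96 CPM in UNX, 13.9, 14.7 and 14.2 in CO-CM and 10.8, 10.7 and 11.2 in PH-CM, the order of Cebpa. Klf16 fell by 0.78 in CO-CM and by 0.72 in PH-CM. Klf7 fell by 0.78 in CO-CM and was higher in PH-CM than in CO-CM by 1.02.

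Of 11 regulators and partners of C/EBP proteins, 8 were tested. In PH-CM against UNX 4 rose and 1 fell (median 0.18), in CO-CM 2 rose and 2 fell (median 0.06), and PH-CM against CO-CM had 1 higher and 2 lower (median -0.01). Trib1, a pseudokinase known for directing C/EBPα protein to degradation, was 22.3, 19.9 and 18.3 CPM in UNX, 13.8, 15.5 and 12.5 in CO-CM and 31.5, 41.2 and 35.6 in PH-CM. It fell by 0.53 in CO-CM and rose by 0.84 in PH-CM. The Cebpa message was above UNX in both media, so the 2 genes moved apart in CO-CM and together in PH-CM. A link between them was not tested. Irf8, a partner of PU.1 in monocyte differentiation, rose by 0.71 in CO-CM and by 0.35 in PH-CM.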
